A study of Mus musculus with 2 samples.

Results

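The genes described here are 6 members of the S100 family, S100a8, S100a9, S100a4, S100a6, S100a10 and S100a11, taken by symbol from the 32285 genes counted in single leukemic cells of the mouse. The cells came from leukemic bone marrow and carried PLZF/RARA, a fusion of the transcription factor PLZF with retinoic acid receptor alpha. Mice had been injected intraperitoneally for 7 days with retinoic acid (0.8 to 1 mg) or with the vehicle, corn oil with 10% DMSO, and the cells of both groups, labelled as late promyelocytes, were sorted for surface CD45.2, c-Kit, Gr1 and Fcγ receptor and for a lack of CD34. Each group is 1 library. The labels give 3 to 5 mice for a cohort and do not say how many mice gave cells to a library, so drug, mouse, leukemia and library preparation cannot be told apart in any ratio below.

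S100 proteins are small, mostly dimeric proteins with EF-hand loops that bind calcium and then expose a surface for partner proteins. S100A8 and S100A9 pair as calprotectin, which fills the cytosol of neutrophils, chelates zinc and manganese, and signals outside the cell through TLR4 and RAGE (gene Ager). S100A4 binds non-muscle myosin, S100A6 binds the calcyclin-binding protein (Cacybp), and S100A10 and S100A11 form complexes with annexins, S100A10 with annexin A2 and S100A11 with annexin A1.

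Filtering left 5476 vehicle cells, with 99107718 UMIs in all (unique molecular identifiers, each for 1 captured RNA molecule), and 7140 retinoic acid cells with 110088247 UMIs. A vehicle cell had a median of 16750 UMIs and a retinoic acid cell 14604. The libraries shared 11 cell barcodes. Genes of the sorted antigens were at like levels in both libraries for Ptprc (CD45, 99.6 and 102.2 CPM), Kit (19.3 and 16.7 CPM) and Fcgr3 (53.5 and 64.8 CPM). Fcgr2b, another Fcγ receptor gene, was at 123.1 and 88.9 CPM. Of the Gr1 genes, Ly6c2 was at 4764.5 and 4326.1 CPM. Ly6g differed, at 35.65 and 281.2 CPM, with a UMI in 4.49% of vehicle and 32.1% of retinoic acid cells. Granule and lineage genes that the sort did not use differed in part. Mpo, the peroxidase of primary granules, was at 311 CPM (counts scaled to a total of 1000000) in vehicle cells and 0.4996 CPM in retinoic acid cells. Elane, neutrophil elastase, stood at 62.8 and 7663 CPM, while Ctsg, also a primary granule gene, was close at 6444.1 and 5979.1 CPM. Cpa3, a mast cell and basophil carboxypeptidase, had a UMI in 58.1% of vehicle cells and 0.0601% of retinoic acid cells, and Cd34, whose protein the sort selected against, in 22.0% and 0.0601%. All 7 genes of the primary granule list reached 1 CPM in the vehicle and 6 of 7 in the retinoic acid library. The monocyte, dendritic and erythroid lists summed to between 0.818 and 7.61 CPM in either library. The lymphoid list summed to 1286 and 577 CPM, nearly all of it Nkg7, the eosinophil list to 125.9 and 34.8 CPM, and the megakaryocyte list to 29.5 and 1.46 CPM. The part of these lists in the results was not tested.

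All 6 genes lie on chromosome 3 (GRCm38, GENCODE annotation). S100a4 (90603771 to 90606045, plus strand), S100a6 (90612882 to 90624181, plus), S100a8 (90668978 to 90670035, plus) and S100a9 (90692632 to 90695721, minus) sit in 1 cluster, with 6.8 kb between S100a4 and S100a6 and 22.6 kb between S100a8 and S100a9. S100a11 (93520488 to 93526287, plus) and S100a10 (93555080 to 93564643, plus) lie 28.8 kb apart, with S100a11 2824.8 kb beyond S100a9. S100a4 is overlapped on its own strand by the readthrough gene Gm42674, which shares 140 bases of its 3′ end, and S100a11 has 5 near-identical copies elsewhere in the annotation, none of them counted in the files. The counts of S100a4 and S100a11 are uncertain to that extent.

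Promoters are shown for the pair that stood highest in the retinoic acid library and for S100a4, which had the lowest ratio of the 6 genes and lies in the same cluster. The sequences are RefSeq's for GRCm38.p6, read 5′ to 3′ on the gene's strand, with every match to a searched motif in capitals. They cover chr3:90668821-90668977 for S100a8, chr3:90695722-90695971 for S100a9 and chr3:90603520-90603769 for S100a4. The other 93 bases of the S100a8 window begin at the first base of an annotated exon and are not shown.
S100a8: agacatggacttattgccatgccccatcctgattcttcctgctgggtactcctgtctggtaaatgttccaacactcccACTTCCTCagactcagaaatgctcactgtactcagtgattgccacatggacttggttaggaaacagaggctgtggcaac
S100a9: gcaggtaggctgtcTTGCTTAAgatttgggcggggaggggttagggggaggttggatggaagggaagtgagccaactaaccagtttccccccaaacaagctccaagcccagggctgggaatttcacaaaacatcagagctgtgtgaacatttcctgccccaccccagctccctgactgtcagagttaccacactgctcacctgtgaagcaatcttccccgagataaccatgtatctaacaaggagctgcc
S100a4: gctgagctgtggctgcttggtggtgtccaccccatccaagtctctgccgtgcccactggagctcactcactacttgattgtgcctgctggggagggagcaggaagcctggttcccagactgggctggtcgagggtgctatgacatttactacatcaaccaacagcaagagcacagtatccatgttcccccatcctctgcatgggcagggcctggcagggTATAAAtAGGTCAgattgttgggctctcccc

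The motifs searched on both strands of the 250 bases before the start were C/EBP (TTGCNNAA), PU.1 (GAGGAAGT), the core of a retinoic acid receptor site (AGGTCA) and the TATA box (TATAAA). S100a8 held a PU.1 match on the minus strand 172 bases before its start and a TATA box at 30 bases, in the part not shown. S100a9 held a C/EBP match at 236 bases. S100a4 held a TATA box at 31 bases and a receptor core at 24 bases, side by side. S100a11 held a receptor core at 243 bases on the minus strand, and the S100a6 window held none of the 4. Of 32851 windows of this length, 9.56% hold the C/EBP letters, 2.44% those of PU.1, 14.02% the receptor core and 12.4% the TATA box. A match describes these letters only.

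The 6 genes did not share a direction. S100a8, the smaller calprotectin subunit, was at 139 CPM in vehicle cells (95% Poisson interval 136.7 to 141.4) and at 13352 CPM in retinoic acid cells (13331 to 13374), 96.0-fold higher. The log2 ratio, computed after adding 0.5 counts to both sums, was 6.59 (6.56 to 6.61) and ranked 4 from the top among the 5548 genes that reached 20 CPM in 1 or both libraries. S100a9, its partner, was at 331 and 13874 CPM, 42.0-fold higher (log2 5.39, 5.38 to 5.41). In the retinoic acid library S100a9 and S100a8 ranked 3 and 4 of all genes by CPM, against 409 and 989 in the vehicle.

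S100a4 went the other way, from 513 CPM in the vehicle (509 to 518) to 36.6 CPM (35.5 to 37.8), 14.02-fold lower (log2 −3.81, −3.86 to −3.76). S100a10, the annexin A2 ligand, was at 836 and 187 CPM, 4.48-fold lower (log2 −2.16, −2.19 to −2.14). S100a6, calcyclin, had the highest vehicle level of the 6 at 4684 CPM and was at 2915 CPM with retinoic acid, 1.61-fold lower (log2 −0.68). S100a11 was at 824 and 1349 CPM, 1.64-fold higher (log2 0.71).

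Thus 2 of the 6 genes were at least 2-fold higher in the retinoic acid library and 2 at least 2-fold lower. Over all 5548 genes, 3.03% were at least 2-fold higher and 5.05% at least 2-fold lower, 8.07% in all, and the median log2 ratio was 0.006. Together the 6 genes took 0.733% of vehicle UMIs and 3.17% of retinoic acid UMIs. S100a8 and S100a9 alone made up 0.0470% and 2.72%, whereas the other 4 genes made up 0.686% and 0.449%. All intervals here cover counting error only, and with 1 library a group no ratio has a replicate check. Beside these ratios, the 22 genes of a neutrophil granule and maturation list summed to 2234 CPM in the vehicle (16 of 22 at 1 CPM or more) and 37638 CPM after retinoic acid (20 of 22). The mast cell and basophil list summed to 3247 CPM (8 of 10 genes at 1 CPM or more, 1 at 0) and 1894 CPM (6 of 10, 3 at 0), most of it Srgn. Their part in the library ratios was not tested; ratios within bins of the granule share and among cells without Cpa3 follow the counts per cell.

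**Figure D1:**
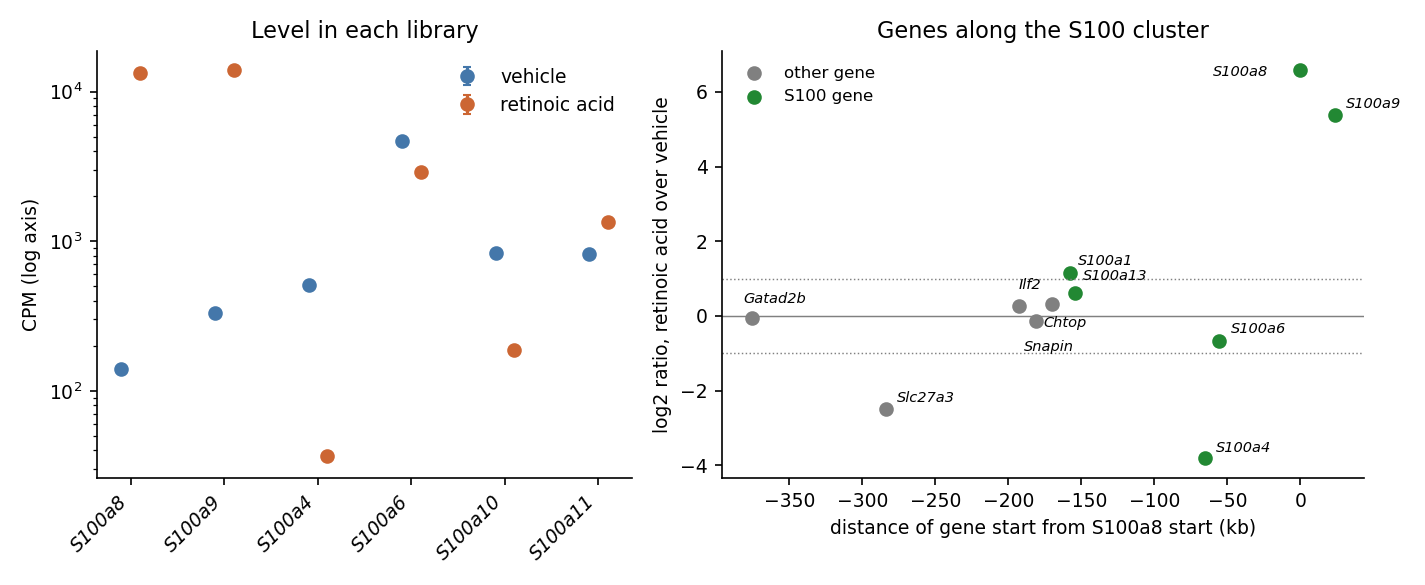
Left, CPM of each gene (log axis) in the vehicle (blue) and retinoic acid (orange) library, with 95% Poisson intervals smaller than the points. Right, log2 ratio of the genes with at least 20 CPM in the S100 cluster against the distance of their start from that of S100a8 in kb (dotted lines, 2-fold). S100a8 and S100a9 stand at 6.59 and 5.39, and S100a4, 65.2 kb before S100a8, at −3.81.

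Other genes around the cluster were also read. From 200 kb before to 200 kb after the cluster, 22 genes were in the files and 11 reached 20 CPM, 6 of them S100 genes. Of the other 5, Slc27a3, a fatty acid transport protein, was lower (124 and 22.2 CPM, log2 −2.49), and Gatad2b, Ilf2, Snapin and Chtop were within 2-fold (log2 −0.15 to 0.31), too few genes to set against the 8.07% of all genes that differed 2-fold either way. S100a1 was at 85.6 and 190 CPM (log2 1.15) and S100a13 at 138 and 213 CPM (log2 0.62). S100a5, which lies 2.5 kb from S100a4 and 1.1 kb from S100a6, was low in both libraries, at 2.11 and 1.15 CPM. Of the 10 further S100 genes in the files, these 3 were the ones above 1 CPM.

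Partners and receptors were read from a list of 17 genes, of which 12 reached 20 CPM. None of the 12 was at least 2-fold higher, 4 were at least 2-fold lower and 8 were within 2-fold, beside the 3.03% and 5.05% of all genes given above. Ahnak, a large scaffold that binds the complex of S100A10 and annexin A2, was at 31.1 and 0.645 CPM (log2 −5.58). Anxa1, the annexin partner of S100A11, was at 441 and 55.3 CPM (log2 −2.995). Cd33, a sialic acid-binding receptor, was at 241 and 71.0 CPM (log2 −1.76), and Anxa6 at 36.8 and 15.6 CPM (log2 −1.23).

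Anxa2, the partner of S100A10, was close in both libraries at 290 and 334 CPM (log2 0.20), although S100a10 itself was 4.48-fold lower. Of the receptors of calprotectin, Bsg (basigin) was at 549 and 415 CPM, Ager at 0.928 and 0.954 CPM, and Tlr4 at 0.111 and 1.27 CPM, from 11 and 140 counts. The TLR4 co-receptor Ly96 (MD-2) went the other way, at 6.55 and 0.718 CPM from 649 and 79 counts, and Cd14 was at 5.58 and 5.88 CPM. Cacybp, the S100A6 partner, was at 160 and 197 CPM, and Myh9, a heavy chain of the myosin that S100A4 binds, at 204 and 244 CPM.

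Counts per cell were compared at an equal depth of 5000 UMIs, reached by random thinning, in 5282 vehicle cells and 6659 retinoic acid cells. Shallower cells, 194 and 481, were not used here. S100a8 had a UMI in 10.5% of vehicle cells (exact Clopper-Pearson 95% interval 9.69 to 11.4) and 97.1% of retinoic acid cells (96.7 to 97.5). S100a9 had one in 27.6% and 95%. Without thinning the shares were 19.9% and 99.0% for S100a8 and 43.4% and 98.8% for S100a9. Both genes were seen together in 7.52% of vehicle cells and 93.4% of retinoic acid cells, and neither in 69.4% and 1.32%.

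The vehicle counts of the pair were held by few cells. The median vehicle cell had 0 UMIs of either gene and the highest 400 of S100a8 and 618 of S100a9. The 53 vehicle cells with the most S100a8 held 78.8% of its UMIs, and the 53 with the most S100a9 held 57.1% of that gene's. The median retinoic acid cell had 36 UMIs of S100a8 and 31 of S100a9, and the top 1% of cells in that library (67) held 8.30% and 9.56%. Only 25 vehicle cells (0.473%) reached the retinoic acid median of S100a8 and 51 (0.966%) that of S100a9, so the distributions overlapped in their tails.

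S100a4 showed the reverse. It had a UMI in 68.6% of vehicle cells and 12.2% of retinoic acid cells (84.0% and 26.4% without thinning), with medians of 1 and 0 UMIs. Among retinoic acid cells, 67 held 29.2% of its UMIs and the highest cell had 32, so some cells kept a level found in the vehicle, where the highest cell had 27. S100a10 was lower in most cells: the median went from 4 to 1 UMI, the share of cells with a UMI from 96.6% to 57.7%, and 2.93% of retinoic acid cells reached the vehicle median.

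S100a6 and S100a11 were detected in nearly every cell of both libraries. S100a6 had a UMI in 100% of vehicle and 99.7% of retinoic acid cells, with medians of 22 and 12 UMIs, and 17.6% of retinoic acid cells reached the vehicle median. Its spread was wider in the retinoic acid library: the highest cell had 213 UMIs against 134, and the top 10% of cells held 33.5% of its UMIs against 22.2%. S100a11 had a UMI in 97.2% and 99.7% of cells, with medians of 4 and 7 UMIs, and 86.3% of retinoic acid cells reached the vehicle median.

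**Figure D2:**
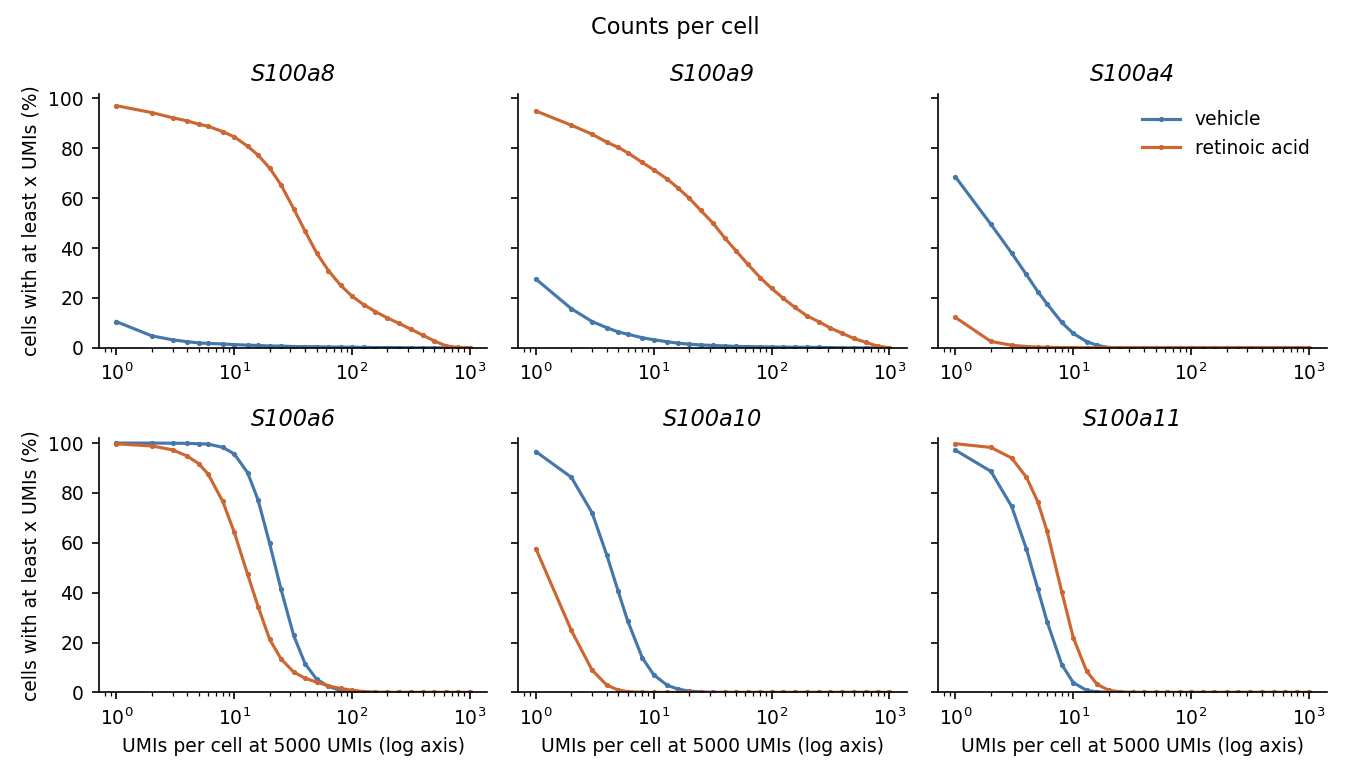
Percent of cells (y) with at least a given number of UMIs (x, log axis) at 5000 UMIs per cell, for 5282 vehicle cells (blue) and 6659 retinoic acid cells (orange). The S100a8 and S100a9 curves are far apart with a thin vehicle tail, S100a4 and S100a10 are shifted the other way, and the S100a6 curves cross in their upper tails.

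Free RNA in droplets can give a UMI to a cell that does not express a gene. Shares were therefore also read in cells with markers of another type. Whether these cells lack S100a8 is not known, so their shares do not measure free RNA alone. The mast cell and basophil set below, led by Cpa3, is a large part of the vehicle library (2119 of 5282 cells). In the vehicle library 131 cells with at least 5 UMIs from the eosinophil list (led by Epx and Prg2) had S100a8 in 4.58% and 2119 cells with as many from the mast cell and basophil list in 2.78%, at median depths of 10835 and 15286 UMIs. In the retinoic acid library such cells were rare. Its 11 cells with at least 5 eosinophil UMIs, a set examined after the data were seen and below the 20 cells required of a gate, had S100a8 at 691 CPM (489 to 948), with 0 to 17 UMIs and a median of 1, and 8 of the 11 had a UMI. Their S100a9 was at 345 CPM, with 0 to 8 UMIs.

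The share of retinoic acid cells with any UMI of the pair thus includes counts of a size that these cells also had. Above the highest of the 11 cells lay 4974 retinoic acid cells (74.7%) for S100a8 and 4853 (72.9%) for S100a9. With at least 3 eosinophil UMIs, a limit also chosen after the data were seen, 24 retinoic acid cells had S100a8 at 5633 CPM and in 75% of cells, and 133 cells with at least 3 mast cell and basophil UMIs at 5711 CPM and in 88.7%, at median depths of 10478 and 16401 UMIs. These wider sets hold more cells near the limit. The S100a8 level in the eosinophil set thus depends on the limit used.

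Those vehicle cells also had their own S100 levels. The 131 eosinophil-marked cells had S100a6 at 6605 CPM and S100a10 at 1466 CPM, and S100a4 at 118 CPM with a UMI in 24.4% of cells. The 2119 cells with mast cell and basophil UMIs had S100a4 at 682 CPM with a UMI in 71.6%, S100a6 at 5802 CPM and S100a10 at 1170 CPM. S100a4 therefore differed between these sets by far more than S100a6, S100a10 or S100a11 (915 and 845 CPM) did.

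Since Cpa3 and Mpo were nearly absent from the retinoic acid library, vehicle cells were split by a UMI of each. S100a8 was at 17.8 CPM in the 2566 cells with Cpa3 alone, 24.7 CPM in the 502 with both, 107 CPM in the 644 with Mpo alone and 590 CPM in the 1570 with neither. S100a9 had the same order at its upper end (92.2, 89.6, 296 and 1137 CPM). S100a4 was higher in the cells with Cpa3 (660 and 639 CPM, against 413 with Mpo alone and 421 with neither), and S100a10 was highest with Cpa3 alone (1063 CPM) and lowest with Mpo alone (672 CPM). S100a6 lay between 3889 and 5448 CPM and S100a11 between 829 and 945 CPM.

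With every cell that had a Cpa3 UMI left out of both libraries, an alternative added after the data were seen, 2214 vehicle and 6655 retinoic acid cells remained. The log2 ratios were then 5.24 for S100a8, 4.34 for S100a9, −3.53 for S100a4, −0.52 for S100a6, −1.95 for S100a10 and 0.65 for S100a11. All 6 kept their direction. S100a8 was at 450 CPM in the vehicle cells that remained, against 139 CPM over all cells.

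Cells were next ordered by their granule share, the percent of UMIs in a list of 22 genes of later neutrophil granules and maturation (Camp, Ngp, Ltf, Lcn2 and others, no S100 gene), and cut into 4 bins of equal size in each library. The bins are ranges, not cell types. Their median shares ran from 0.0600% to 0.320% in the vehicle and from 0.460% to 12.4% in the retinoic acid library, so the top vehicle bin overlapped mainly with the lowest retinoic acid bin. Median depth before thinning was 18112 UMIs in the lowest and 10754 in the highest retinoic acid bin.

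Ordered by rising share, the retinoic acid bins held 3416, 6387, 11660.1 and 46430 CPM of S100a8, and 1600.1, 5438, 14033 and 51367 CPM of S100a9. The highest bin was 13.6-fold above the lowest for S100a8 (log2 3.76, 3.75 to 3.78) and 32.1-fold for S100a9 (log2 5.00, 4.98 to 5.03). The vehicle's own bins held 17.7, 32.6, 34.1 and 714 CPM of S100a8 and 53.0, 120.5, 156 and 1379 CPM of S100a9, with nearly all of the step in the last bin. The vehicle log2 ratio of the highest over the lowest bin was 5.33 for S100a8 and 4.70 for S100a9, and 4.59 and 3.70 when Camp, Ngp and Lcn2 were left out of the list. Within the highest vehicle bin, 76 cells whose share reached the retinoic acid median of 2.14% held 75.1% of the vehicle's S100a8 and 53.8% of its S100a9 UMIs, at 10416 and 15974 CPM. The other 5206 vehicle cells had 50.3 and 200.2 CPM. The 3336 retinoic acid cells at or above the same share had 28994 CPM of S100a8 and 32641 CPM of S100a9. The gap between the libraries was thus smaller in these granule-rich cells than over all cells. Their shares were not matched above that limit.

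S100a6 was higher with the granule share in both libraries, from 4115 to 6261 CPM in the vehicle and from 2118 to 5656 CPM in the retinoic acid library (log2 0.61 and 1.42). In each bin it was lower in the retinoic acid library, by 1.94-fold in the lowest and 1.11-fold in the highest bin. The bins were cut within each library, so the highest bins differ in median share (0.320% and 12.4%). Among cells with a share of at least 2.14%, S100a6 was at 7110.5 CPM in 76 vehicle cells and 4198.3 CPM in 3336 retinoic acid cells. S100a11 also stood higher with the share, from 718 to 1085 CPM and from 1141 to 1940.1 CPM. The lower library level of S100a6 under retinoic acid was thus found beside a higher level in that library's most granule-rich cells than in its others.

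S100a4 changed little with the share in the vehicle (601 to 495 CPM) and was at 50.7 CPM in the lowest and 26.4 CPM in the highest retinoic acid bin (log2 −0.94). That second difference nearly vanished, at −0.022, when Camp, Ngp and Lcn2 were left out of the list. S100a10 was 771 CPM in the lowest and 1119 CPM in the highest vehicle bin (log2 0.54), but 216 and 186 CPM in the retinoic acid library (log2 −0.22), which turned to 0.15 with the list, S100a8 and S100a9 left out of the total. Compared bin by bin, S100a4 was 11.9-fold to 18.7-fold and S100a10 3.57-fold to 6.02-fold lower in the retinoic acid library. Bins of the same rank differ in granule share between the libraries.

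**Figure D3:**
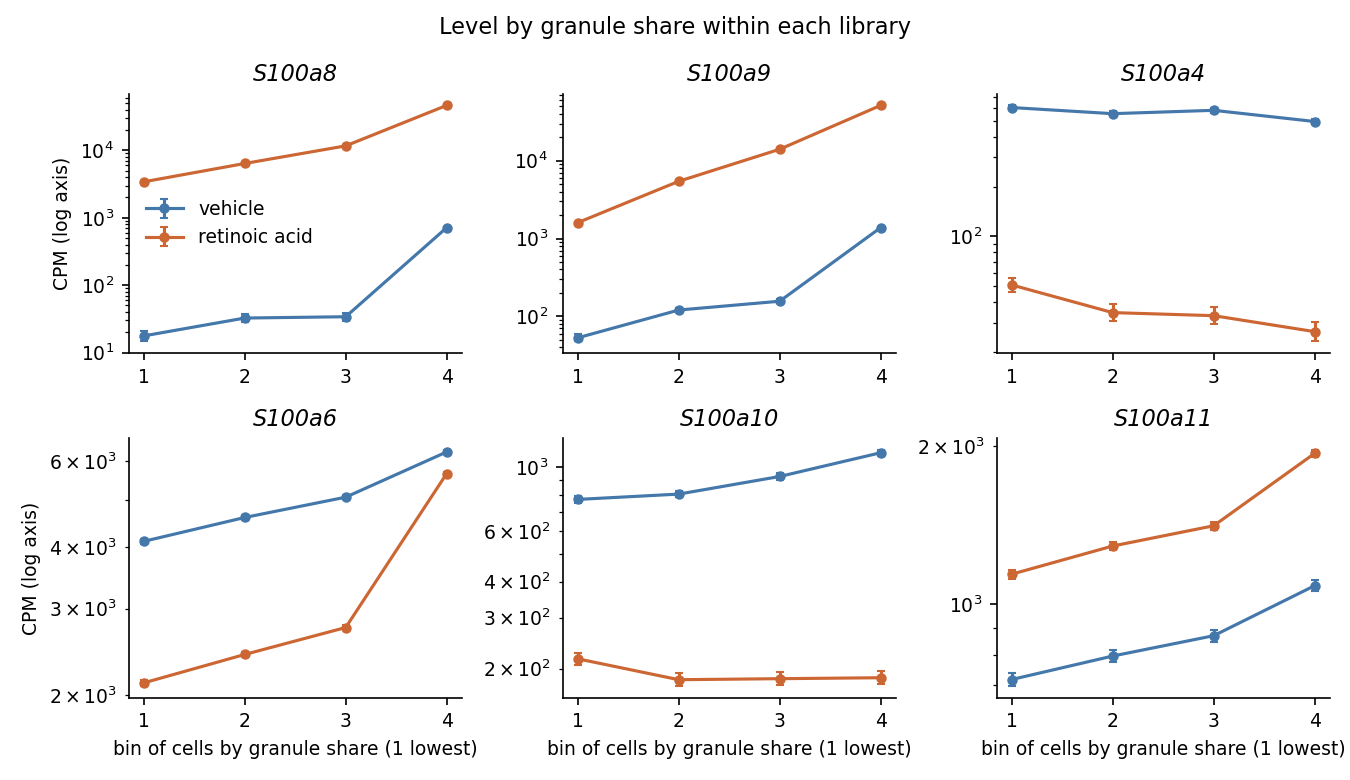
CPM (log axes with a range of their own in each panel) of the 6 genes in the 4 bins of cells by granule share, lowest to highest, in the vehicle (blue) and retinoic acid (orange) library, with 95% Poisson intervals. S100a8 and S100a9 climb in both libraries, S100a6 climbs from 2118 to 5656 CPM under retinoic acid, and the S100a4 and S100a10 lines stay far apart.

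The libraries were also compared in cells of like granule share (0.2% to 0.8%), a range chosen after the data were seen that held 1437 vehicle and 1511 retinoic acid cells, with medians of 0.280% and 0.480%. S100a8 was at 64.6 and 3641 CPM there, 56.3-fold higher (log2 5.82, 5.69 to 5.95). S100a9 was at 327 and 1717 CPM, 5.25-fold higher (log2 2.39, 2.33 to 2.46), against 42.0-fold over all cells. S100a4 remained lower at 497 and 49.1 CPM (log2 −3.34), and S100a10 at 1106 and 212 CPM (log2 −2.39). A like share need not rest on the same genes. Over all cells Anxa1 made up a larger part of the list's sum in the vehicle than in the retinoic acid library.

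S100a6 was lower by more in this range than over all cells, at 5967 and 2166 CPM (log2 −1.46). S100a11 was within 1.16-fold, at 994 and 1153 CPM (log2 0.21). The size of the S100a8 ratio depended on which cells were set against each other: between the highest vehicle bin (714 CPM) and the lowest retinoic acid bin (3416 CPM) S100a8 was 4.79-fold and S100a9 1.16-fold higher, with 76 granule-rich cells in that vehicle bin.

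This gave the calprotectin pair a shifting balance. Over all cells there were 0.421 S100a8 counts per S100a9 count in the vehicle (0.412 to 0.429) and 0.962 in the retinoic acid library (0.960 to 0.965). Along the retinoic acid bins the ratio was 2.14, 1.18, 0.831 and 0.904, so S100a8 outnumbered S100a9 in the lower bins and not in the upper ones. In the vehicle it was 0.334, 0.270, 0.218 and 0.518, below 1 in each bin.

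The balance was also seen cell by cell. More S100a8 than S100a9 UMIs were found in 79.0% of retinoic acid cells of the lowest bin (77.0 to 81.0) and in 62.2%, 37.2% and 31.6% of the next ones. In the vehicle the share was between 2.80% and 6.36%, but most vehicle cells were tied, mainly at 0 UMIs of both genes (3732 of 5282 in all, 1105 of 1321 in the lowest and 731 of 1320 in the highest bin), so these shares follow detection and are not set against those of the retinoic acid library. The 276 barcodes removed from the retinoic acid library by the filters had 2260 S100a8 and 2574 S100a9 counts, which is fewer S100a8 than S100a9, unlike the lowest bin.

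**Figure D4:**
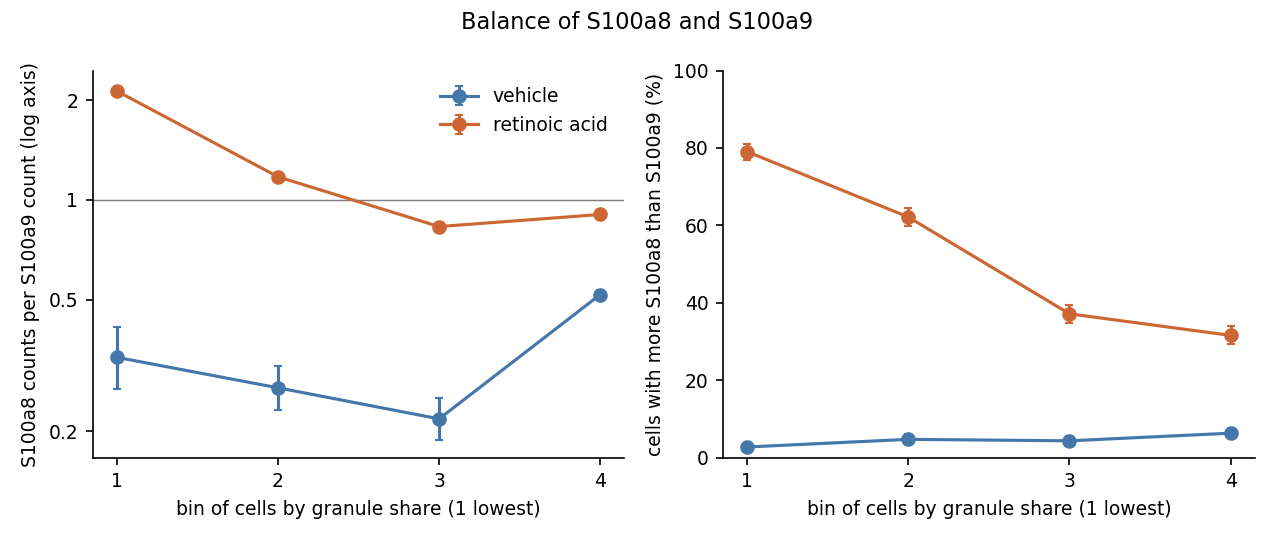
Left, S100a8 counts per S100a9 count (log axis, grey line at 1) in the bins of cells by granule share, with exact 95% binomial intervals. Right, percent of cells with more S100a8 than S100a9 UMIs, with Clopper-Pearson intervals. The retinoic acid line (orange) goes from 2.14 to 0.904 and from 79.0% to 31.6%, and the vehicle ratio (blue) stays below 1. Most vehicle cells are tied at 0 UMIs, which keeps the right-hand vehicle line low.

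Cell cycle phases were called from S and G2/M gene lists. By summed CPM all 6 genes were higher in cells called G1 than in cells called G2/M in both libraries. For the calprotectin pair in the vehicle the share of cells with a UMI ran the other way, 7.83% in G1 and 13.7% in G2/M for S100a8 and 22.8% and 32.7% for S100a9. In the retinoic acid library S100a8 was at 28175 CPM in G1, 13665 in S and 10509 in G2/M, S100a9 at 30749, 15339 and 10243 CPM, and S100a6 at 4860.0, 2590 and 2396 CPM. In the vehicle S100a4 was at 747, 374 and 275 CPM (log2 G1 over G2/M 1.44). S100a10 in the retinoic acid library was at 212, 180.1 and 185 CPM (log2 0.20).

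Phase and granule share went together, with 47.5% of cells called G1 in the highest retinoic acid bin and 28.1% in the lowest. Within bins the picture differed by gene. Vehicle S100a4 was higher in G1 in each of the 4 bins (log2 1.44 to 1.63), and so were S100a6, S100a10 and S100a11. Vehicle S100a8 was lower in G1 in the 3 lower bins (log2 −1.70, −1.43 and −2.14) and higher in the highest (0.58). S100a9 did the same there (log2 −1.85, −0.94 and −1.11, then 1.41). In those 3 lower vehicle bins S100a8 had only 27, 56 and 61 counts in G1 and 84, 108 and 124 in G2/M. Free RNA was not separated from counts this low. Under retinoic acid the log2 ratio of G1 over G2/M was −0.19 for S100a8 in the lowest and 1.15 in the highest bin, and 0.08 and 1.52 for S100a6.

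The ratios between libraries kept their direction within phases. S100a8 was 109-fold higher in G1, 117-fold in S and 87.95-fold in G2/M, and S100a4 was 16.2-fold, 10.6-fold and 9.40-fold lower. S100a6 was 1.23-fold lower in G1 and 1.52-fold lower in G2/M.

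Correlations between the genes over cells were computed within each library at 5000 UMIs per cell, for the 15 pairs, as descriptions with no test. The cells of a library share its preparation and free RNA, and at a fixed total a very abundant gene lowers the share left to others. S100a8 and S100a9 had a Spearman rho of 0.39 over 5282 vehicle cells and 0.87 over 6659 retinoic acid cells. Within the retinoic acid bins the rho was 0.69 to 0.75, and within phases 0.84 to 0.87.

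S100a6 was tied to different genes in the 2 libraries. Among retinoic acid cells its rho was 0.52 with S100a8 and 0.47 with S100a9. Within bins the rho with S100a8 was 0.28, 0.30, 0.41 and 0.72 from the lowest to the highest, so below the overall value in the 3 lower ones. In the vehicle the rho with S100a8 was near 0 (−0.0028), and S100a6 went instead with S100a10 (0.34) and S100a4 (0.28), pairs at 0.07 and 0.10 in the retinoic acid library. Within vehicle cells called G1, S and G2/M, the rho of S100a6 with S100a10 was 0.35, 0.11 and 0.15. With S100a4 it was 0.16, 0.16 and 0.14, below the value over all cells. S100a11 had a rho of 0.39 with S100a8 and 0.37 with S100a9 under retinoic acid, and 0.09 and 0.11 in the vehicle. Under retinoic acid the rho with a cell's UMIs before thinning was −0.31 for S100a8, S100a9 and S100a11 and −0.21 for S100a6. For S100a4 and S100a10 it was 0.05 and −0.04. In the vehicle it was −0.32 for S100a6, −0.27 for S100a10, −0.19 for S100a11, −0.12 for S100a4, 0.05 for S100a8 and 0.08 for S100a9. The part of depth in the correlations was not tested.

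Sparse counts lower a rho, so each gene's counts were also thinned to the mean of the library with fewer, an alternative added after the data were seen. S100a8 and S100a9 then had 0.51 in the retinoic acid library against 0.39 in the vehicle, and S100a6 and S100a8 0.40 against −0.0021. S100a6 and S100a10 had 0.22 in the vehicle against 0.07, and S100a4 and S100a6 0.12 against 0.10. The S100a6 and S100a8 difference between libraries thus stayed large at like counts, while that of S100a4 and S100a6 did not.

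**Figure D5:**
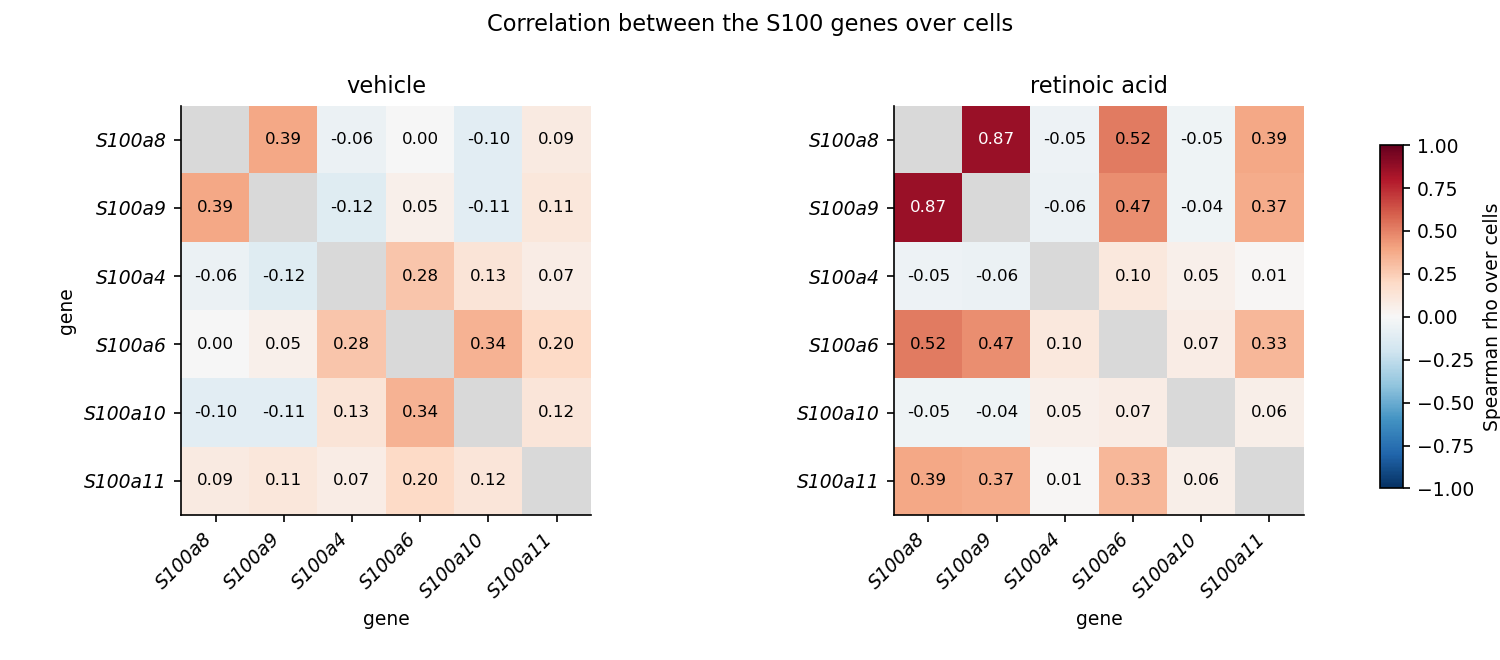
Spearman rho over cells for each pair of the 6 genes (both axes list the genes, colour scale from −1 to 1) in 5282 vehicle cells (left) and 6659 retinoic acid cells (right). The retinoic acid block of S100a8, S100a9, S100a6 and S100a11 holds values from 0.33 to 0.87, and the vehicle block of S100a4, S100a6 and S100a10 values from 0.13 to 0.34.

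The genes most like each member were taken as the 5 with the highest rho among genes with at least 50 CPM in that library. After S100a9, S100a8 was most like Camp, the cathelicidin precursor, in both libraries (0.35 in the vehicle and 0.71 under retinoic acid), followed in the vehicle by Ngp, Elane and Hp and under retinoic acid by Wfdc21, Ngp and Lcn2. S100a9 was most like Ngp, a neutrophil granule protein, in the vehicle (0.38, after S100a8) and like Camp under retinoic acid (0.75). Camp, Ngp, Wfdc21 and Lcn2 belong to the granule list, which is why the bins above are no separate evidence from these values.

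S100a4 was most like Ifitm1 in both libraries, at 0.36 in the vehicle and 0.20 under retinoic acid, where its counts are sparse. S100a6 was most like Lgals3, galectin-3, in the vehicle (0.44), ahead of Slpi, Ifitm1, Tyrobp and Ftl1, and under retinoic acid Lgals3 (0.47) ranked between S100a8 and S100a9. S100a10 followed S100a6, Lgals3, Prr13, Cpa3 and Actg1 in the vehicle (0.34 to 0.28), and no gene passed 0.14 under retinoic acid. S100a11 was most like Tmsb4x, thymosin beta 4, in the vehicle (0.24), and under retinoic acid like S100a8, Wfdc21, S100a9, Tmsb4x and Prdx5 (0.39 to 0.36).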

How the data were processed

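The authors deposited unnormalised UMI counts for every gene in every cell. Per the file headers they were made with Cell Ranger 4.0.0, with builds mm10 and GRCm38.p4 per the submitters' processing notes. How cells were told from empty droplets is not given in the sources used here. Cells with at least 1000 UMIs, 500 genes and at most 10% mitochondrial UMIs were kept. Scrublet (scanpy 1.11.5) called 0.164% and 0.224% of cells doublets, was taken not to have worked, and removed none. Counts were summed per library and given as CPM. Ratios carry exact conditional binomial intervals, sums Poisson and shares Clopper-Pearson intervals (95%, counting error only). A sum of 0 allows 3 counts, 0.0303 CPM in vehicle and 0.0273 CPM in retinoic acid cells. With 1 library a group no test was made. Ratios, intervals and thinning were tested on simulated counts. Phases were called with scanpy on both libraries together. Of the 32285 genes, 32235 matched GENCODE M21 by identifier. Near copies matched the last 300 bases of a transcript over at least 80 bases at 90% identity (BLAST 2.17.0). The S100a10 promoter window and protein sequences were not used here.

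The members and lists were chosen with earlier results of these data known. Named beside the 6 genes were other S100 genes of at least 1 CPM, partners and neighbours of at least 20 CPM that differed 2-fold, Anxa2, Tlr4, Ager and Bsg, and the 5 genes with the highest rho. Cacybp, Myh9, Ly96, Cd14, the 4 neighbours within 2-fold and the genes that describe the sort fall outside that rule and were chosen after their values were seen.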

Additional observations from a re-analysis of the deposited data

Results flagged for a closer look

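In the main setting, S100a10 went in opposite directions along the granule share in the 2 libraries. The highest bin was above the lowest by 0.54 on the log2 scale in the vehicle (771 and 1119 CPM) and stood at −0.22 in the retinoic acid library (216 and 186 CPM). The difference between these 2 values was not tested, and the second was 0.15 with the granule list, S100a8 and S100a9 left out of the total. It was −0.041 with Camp, Ngp and Lcn2 out of the list and −0.040 at 3000 UMIs per cell. The direction under retinoic acid thus depended on the setting.

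Barcodes that the cell filters removed, which stand outside the comparisons of kept cells, carried more of 3 genes in the retinoic acid library than in the vehicle. The 276 removed retinoic acid barcodes had S100a8 at 6357 CPM, S100a9 at 7240 CPM and S100a11 at 709 CPM. The 310 removed vehicle barcodes had 38.5, 203 and 458 CPM. Taken as 1 set in each library, the removed barcodes were below the kept cells for these 3 genes. The 129 vehicle barcodes under 1000 UMIs, however, had S100a9 at 581 CPM (439 to 755), above the 331 CPM of kept vehicle cells. Their S100a8 and S100a11, at 83.0 and 218 CPM, were below the kept cells.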

How the results depend on the processing

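Of 345 recomputed values, 231 stayed within counting error or the tolerance of 0.1 for a rho, 113 moved and 1 reversed. The log2 ratios of S100a8, S100a9, S100a4, S100a6, S100a10 and S100a11 kept their direction under each setting run. In that order they were 6.67, 5.47, −3.73, −0.60, −2.08 and 0.79 with TMM scaling (edgeR 4.0.16), which moved the median of all genes to 0.086. With equal weight per cell they were 6.23, 5.22, −3.92, −0.54, −2.26 and 0.76. With the granule list, S100a8 and S100a9 left out of the total they were 6.68, 5.48, −3.72, −0.59, −2.07 and 0.80. Among cells with a granule share of 0.2% to 0.8% they were 5.82, 2.39, −3.34, −1.46, −2.39 and 0.21, and among cells without a Cpa3 UMI 5.24, 4.34, −3.53, −0.52, −1.95 and 0.65. S100a8 was 6.55 without the 5% of cells with the highest Scrublet scores, and S100a6 −0.70 without cells of at most 0.1% mitochondrial UMIs. The 2 higher and 2 lower genes became 3 and 3 at 1.5-fold and were 2 and 2 under each other limit, while 8.15% and 10.1% of all genes passed at 1.5-fold.

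The Pearson correlation of log counts of S100a8 and S100a9 was 0.60 in the vehicle. The rho with mean counts matched between libraries was 0.51 in the retinoic acid library. At 3000 UMIs per cell, G1 over G2/M was 1.52 for S100a8, 1.61 for S100a9, 1.35 for S100a4 and 0.74 for S100a6 in the vehicle, and 1.59 for S100a8, 1.69 for S100a9, 1.18 for S100a6 and 0.54 for S100a11 in the retinoic acid library. The highest over the lowest retinoic acid bin, in the order of genes above, was 4.13, 5.37, −0.57, 1.78, 0.15 (reversed, S100a10) and 1.13 with the list, S100a8 and S100a9 left out of the total. With Camp, Ngp and Lcn2 out of the list it was 3.81, 4.76, −0.022, 1.58, −0.041 and 0.87. At 3000 UMIs it was 3.87 for S100a8, −1.29 for S100a4, 1.65 for S100a6, −0.040 for S100a10 and 0.87 for S100a11. The cause of these shifts was not tested. Shares of cells with a UMI move with depth: S100a8 was at 8.35% and 15.3% of vehicle cells at 3000 and 10000 UMIs. No paired analysis was possible because a group is 1 library.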
